A study of Gallus gallus with 10 samples.

Results

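Adiponectin (ADIPOQ), its receptors ADIPOR1 and ADIPOR2, and T-cadherin (CDH13), a cell surface protein that binds adiponectin, were followed bird by bird in the abdominal fat of fat line and lean line chickens. The members were all probe sets that the array annotation gives a single symbol out of these 4 genes. There were 4 member genes among 13009 with a symbol, and 7 member probe sets among 38439 compared. ADIPOQ (Entrez gene 404536) and ADIPOR1 (421148) had 1 probe set each, ADIPOR2 (418155) had 2 and CDH13 (414849) had 3. CDH13 was chosen by its measured signals in these birds, because they separate the lines, so its difference between the lines is described here without a test, for each of its 3 probe sets. The other 3 genes were added for their place in the adiponectin system, and their line differences were tested. The samples were abdominal fat of 5 fat line and 5 lean line males of Arbor Acres origin, taken at 49 days of age, with 1 Chicken Genome Array per bird. Both lines came from 1 grandsire line, had been bred apart for high or low abdominal fat and plasma very low density lipoprotein, and were fed alike. The birds were weighed fasted and then slaughtered. The birds with the highest and the lowest abdominal fat percentage had been chosen for the arrays, so the groups are extremes and not random birds of their lines. A bird is named by its line and the replicate number of its label.

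Adiponectin is a hormone secreted by fat cells and carries a collagen-like stalk and a globular head related to complement C1q. In mammals it circulates as trimers and larger multimers, is higher in lean than in obese individuals and sensitises muscle and liver to insulin. Its receptors ADIPOR1 and ADIPOR2 are membrane proteins with a reversed topology compared with G protein-coupled receptors. In mammals they act through the adaptor APPL1, AMP-activated kinase (AMPK), PPAR alpha and the breakdown of ceramides. T-cadherin is an unusual cadherin that is held on the membrane by a lipid anchor and has no cytoplasmic tail. In mammals it binds the large multimers of adiponectin on endothelium and muscle and retains them in tissue.

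All values are signals of the authors' MAS5 software on a linear scale, and no detection calls come with them. The median signal of a probe set was 185.8 to 234.2 in 9 birds and 276.2 in fat line 4, whose mean correlation with the other birds, 0.819 (Pearson r of log2 signals, across probe sets), was the lowest of the 10 birds. The arrays were scanned on 3 days, with fat line 5 and lean line 4 on day 1, lean line 1 and 2 on day 2, and the other 6 birds on day 3. For lean line 4 the log of the washing station notes that the protocol was stopped. The 3' to 5' ratio of the beta-actin control was 1.55 to 2.05 on day 3 and 2.28 to 3.09 on the other days. Day 2 held lean line birds alone, so there day and line cannot be told apart. FABP4, a fatty acid binding protein that marks fat cells, had a signal of 44732 to 57201 over the 10 birds. A signal depends on the probes as well as on the RNA, so signals of different genes give no order of RNA amount. The labels call the birds of a line biological replicates, and p-values measure the spread between them.

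Adiponectin signal was on average lower in the fat line, but the difference did not pass the test over all probe sets. It was 10739.2, 5748.9, 7773.0, 5331.4 and 11064.8 in fat line 1 to 5, against 12919.7, 9870.2, 10784.0, 12729.2 and 12019.1 in lean line 1 to 5. Fat line 2, 3 and 4 lay below every lean line bird, and fat line 1 and 5 lay within the lean line range. The mean was 8131 ± 2695 in the fat line and 11664 ± 1307 in the lean line (SD, n = 5 each). The fat line had the lower signal in 22 of the 25 pairings of a fat line with a lean line bird. The log2 fold, fat line over lean line, was -0.58 (SE 0.20, 95% interval -1.01 to -0.15). It did not pass limma's test over all probe sets (adjusted p = 0.536), which 0% of the 38439 probe sets passed. The unadjusted limma p was 0.0114, below 0.05 as in 7.38% of the probe sets (3.38% higher and 3.99% lower in the fat line), and the two-sided exact permutation p was 0.0476, where the smallest possible for 5 birds against 5 is 0.00794. In bulk tissue a lower signal from fewer cells of a type cannot be told apart from less RNA per cell. On scan day 3 the 4 fat line birds averaged 7398 and the 2 lean line birds 11402, a log2 fold of -0.68. The highest of these fat line birds had 10739.2 and the lowest of these lean line birds 10784.0. How many of all probe sets separate the lines on day 3 alone was not counted. On day 1 fat line 5 had 11064.8 and lean line 4 had 12729.2, a log2 fold of -0.20.

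**Figure D1:**
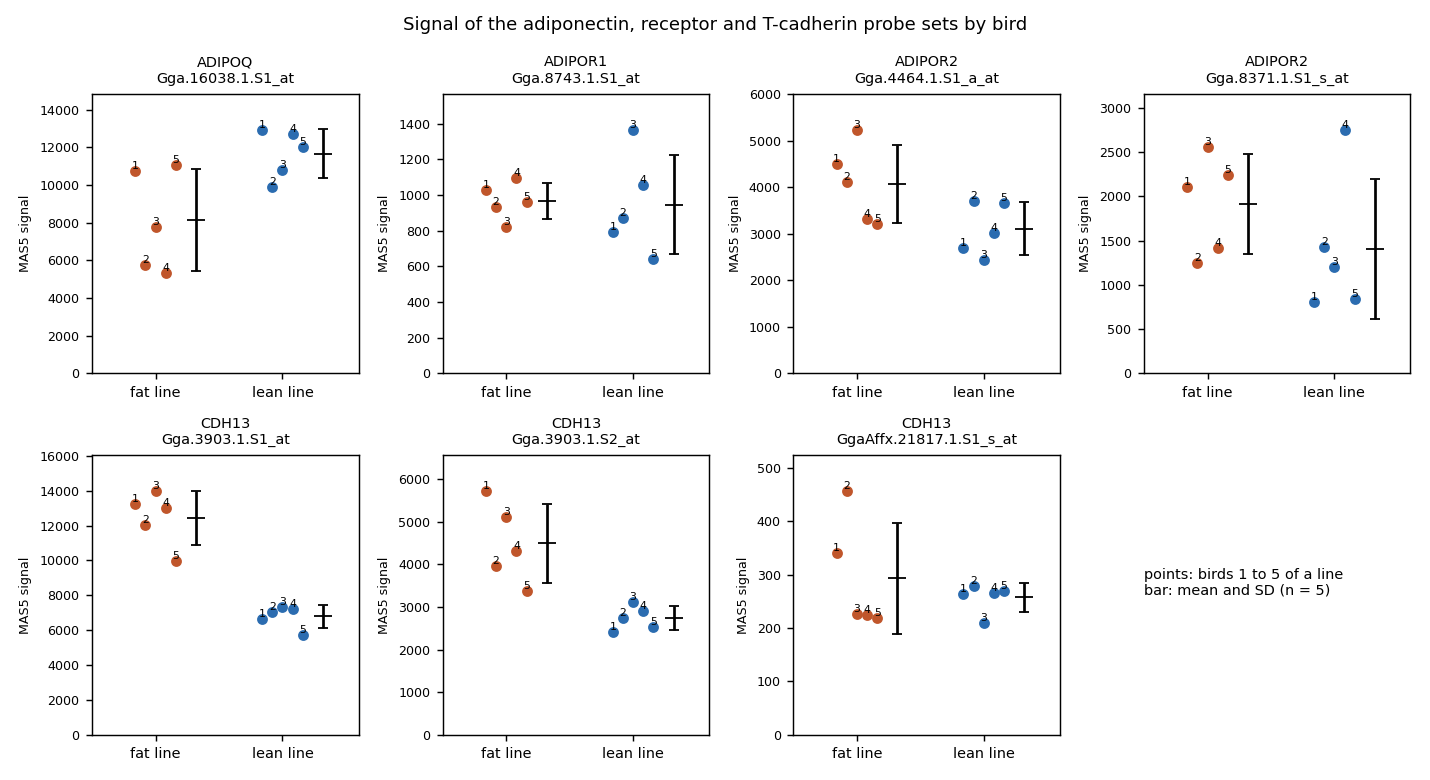
MAS5 signal (linear scale from 0) of each probe set of ADIPOQ, ADIPOR1, ADIPOR2 and CDH13, with 1 numbered point per bird, fat line left of lean line, and the mean with SD (n = 5 each). The first pair of CDH13 probe sets separates the lines, ADIPOQ is low in fat line 2, 3 and 4, and the other probe sets overlap.

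The line difference of the receptor ADIPOR1 was smaller than the spread between birds. Its signal was 1027.6, 932.7, 819.6, 1094.4 and 961.7 in fat line 1 to 5, against 795.8, 870.8, 1365.0, 1056.9 and 643.3 in lean line 1 to 5. The lean line birds held both the lowest and the highest value, and all 5 fat line birds lay between them. The coefficient of variation was 10.7% in the fat line and 29.3% in the lean line. The log2 fold was 0.07 (SE 0.20, limma adjusted p = 0.966), with a 95% interval of -0.35 to 0.49, which leaves room for a moderate difference in either direction.

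The receptor ADIPOR2 was measured by a probe set for several transcripts of 1 gene and by a dimmer one whose probes may be shared with other transcripts. The brighter gave 4509.0, 4124.7, 5235.2, 3316.6 and 3224.0 in fat line 1 to 5, against 2702.4, 3705.2, 2448.5, 3016.9 and 3675.7 in lean line 1 to 5. Fat line 1, 2 and 3 were above every lean line bird, and fat line 4 and 5 were within the lean line range. The log2 fold was 0.39 (SE 0.17, 95% interval 0.03 to 0.75), which did not pass (limma adjusted p = 0.656, unadjusted p = 0.0373). The dimmer probe set gave 2104.9, 1243.7, 2553.1, 1416.0 and 2243.9 in fat line 1 to 5, against 800.9, 1421.7, 1204.2, 2746.6 and 842.3 in lean line 1 to 5. Its highest value of all was that of lean line 4, the bird whose wash was stopped. Its log2 fold was 0.55 (SE 0.30, limma adjusted p = 0.744). Over the 10 birds the log2 signals of both ADIPOR2 probe sets had a Pearson r of 0.39, so they ordered the birds differently. On scan day 3 the brighter had a log2 fold of 0.50 with overlap of the lines. The dimmer had 0.80 there, with 1243.7 to 2553.1 in 4 fat line birds and 842.3 to 1204.2 in 2 lean line birds. Lean line 4, with its highest value, was not scanned that day. How many of all probe sets separate the lines on day 3 was not counted. On day 1 the log2 folds were 0.10 in the brighter and -0.29 in the dimmer.

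T-cadherin was the member chosen for its separation of the lines, and its levels are given as a description. The brightest of its 3 probe sets had a signal of 13229.6, 12017.0, 13955.2, 13003.5 and 9976.2 in fat line 1 to 5. In lean line 1 to 5 it had 6663.5, 7028.1, 7352.6, 7225.9 and 5735.5. The lowest fat line bird was 1.36 times the highest lean line bird, and the means, 12436 ± 1540 in the fat line and 6801 ± 650 in the lean line (SD, n = 5 each), had a ratio of 1.83. The second brightest had 5705.6, 3947.1, 5097.1, 4316.0 and 3367.2 in fat line 1 to 5, against 2408.2, 2734.6, 3115.3, 2896.3 and 2534.3 in lean line 1 to 5. The lines did not overlap there either, with fat line 5 at 1.08 times lean line 3 and a ratio of means of 1.64. Lines that do not overlap were found in 1.39% of all probe sets, 0.705% with the fat line higher and 0.687% with it lower. These probe sets ranked the birds much alike within the lines, with an r of 0.81 for deviations of log2 signals from the line means over 10 birds, which share the RNA of each bird. The third was dim, at 218.7 to 455.7 in the fat line and 209.8 to 278.8 in the lean line, and overlapped, with a log2 fold of 0.13. The T-cadherin difference is therefore one of 2 of its 3 probe sets.

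Fat line 5 had the lowest CDH13 signal of its line in all 3 probe sets and was the single fat line bird not scanned on day 3. Within day 3 the brightest probe set averaged 13051 in 4 fat line birds and 6544 in 2 lean line birds, a log2 fold of 1.0. On day 1 it was 9976.2 in fat line 5 and 7225.9 in lean line 4, a log2 fold of 0.47. The corresponding folds of the second probe set were 0.75 and 0.22. With 1 bird a line on day 1, bird and day cannot be told apart there. With scan day as a block the folds were 0.86 for the brightest and 0.60 for the second probe set, against 0.87 and 0.69 without it.

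**Figure D2:**
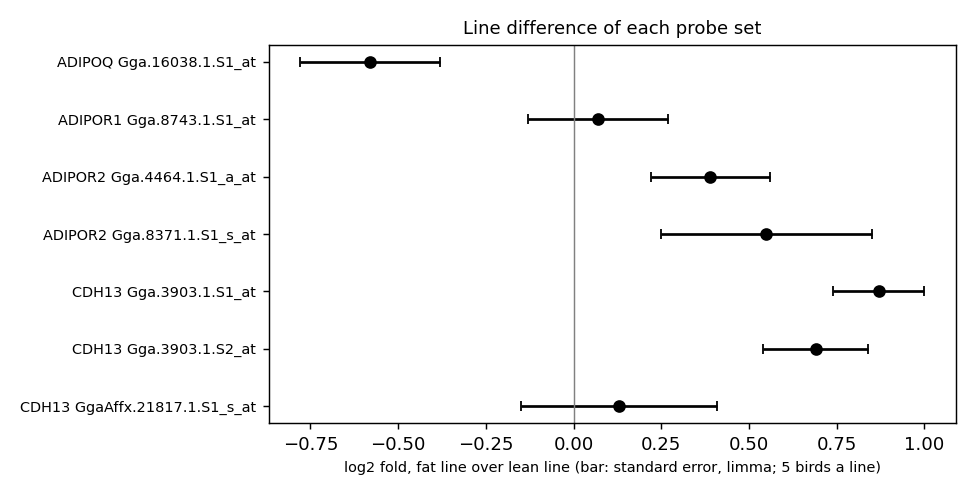
Log2 fold of each probe set, fat line over lean line (x axis), as points with limma standard errors from 5 birds a line. ADIPOQ is at -0.58, ADIPOR1 at 0.07, the ADIPOR2 probe sets at 0.39 and 0.55, and those of CDH13 at 0.87, 0.69 and 0.13. CDH13 was chosen for its line difference, which was not tested.

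Ligand was set against receptor within each bird as the difference of their log2 signals, in which a scaling of the whole array cancels. The size of such a difference in 1 bird reflects the probes, so only its change between birds is read. ADIPOQ minus ADIPOR2 was 1.25, 0.48, 0.57, 0.68 and 1.78 in fat line 1 to 5, against 2.26, 1.41, 2.14, 2.08 and 1.71 in lean line 1 to 5. It averaged 0.95 ± 0.55 in the fat line and 1.92 ± 0.35 in the lean line (SD, n = 5 each). Fat line 5 alone reached into the lean line range. Relative to ADIPOR2 the ligand was lower in the fat line by a log2 difference of -0.97, or 1.95-fold (two-sided exact permutation p = 0.0238, and 0.0714 adjusted over 3 pairs of members). The adjusted value did not pass. Leaving out fat line 5, the bird in the lean line range, makes the lines separate, and the difference was then -1.17 (adjusted exact permutation p = 0.0238). With any other single bird left out, the adjusted exact permutation p was 0.0595 to 0.119, which did not pass.

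ADIPOQ minus ADIPOR1 was 3.39, 2.62, 3.25, 2.28 and 3.52 in fat line 1 to 5, against 4.02, 3.50, 2.98, 3.59 and 4.22 in lean line 1 to 5. The fat line was lower in 21 of 25 pairings, with a difference of -0.65 (exact permutation p = 0.0952, adjusted 0.143). Between the receptors, ADIPOR1 minus ADIPOR2 averaged -2.06 ± 0.42 in the fat line and -1.74 ± 0.63 in the lean line (SD, n = 5 each), with a difference of -0.31 (exact permutation p = 0.365, adjusted 0.365). Neither passed.

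ADIPOQ and CDH13 lay in opposite orders by line. Their log2 difference, ADIPOQ minus CDH13, was -0.30, -1.06, -0.84, -1.29 and 0.15 in fat line 1 to 5, against 0.96, 0.49, 0.55, 0.82 and 1.07 in lean line 1 to 5. Every fat line bird was below every lean line bird, which follows in part from the choice of CDH13 and is not tested. For deviations from the line means, CDH13 and ADIPOQ had an r of -0.33 over the 10 birds, which is a description and was not tested. CDH13 minus ADIPOR1 was 3.37 to 4.09 in the fat line and 2.43 to 3.16 in the lean line, without overlap. This too follows in large part from the choice of CDH13 and was not tested. CDH13 minus ADIPOR2 was 1.41 to 1.97 in the fat line and 0.64 to 1.59 in the lean line, with overlap.

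**Figure D3:**
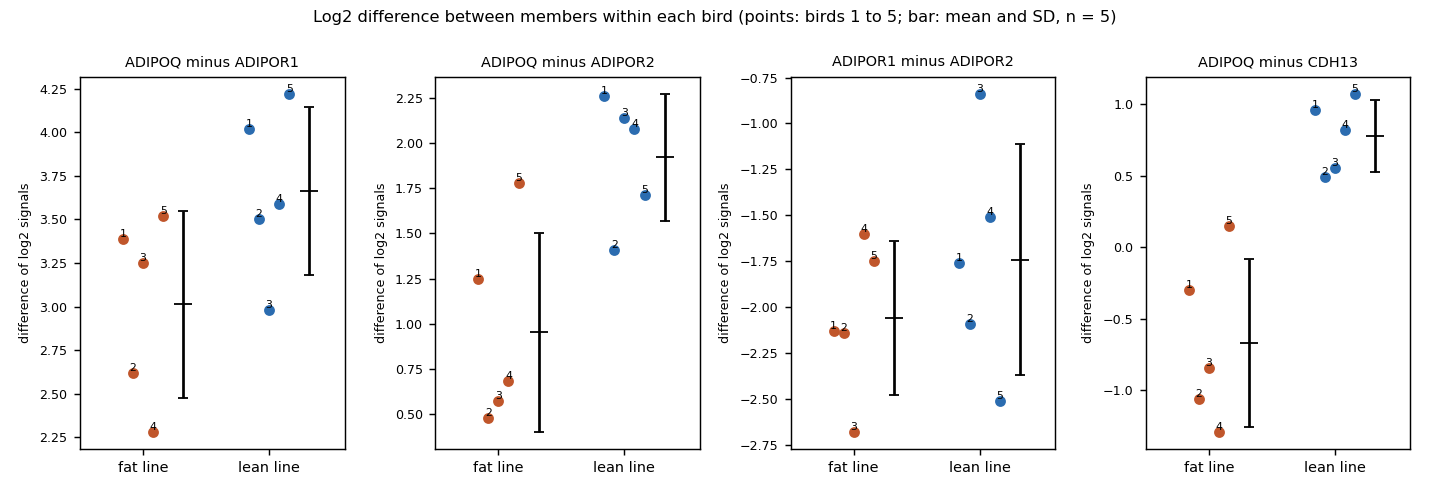
Difference of log2 signals between members within each bird (y axis), with 1 numbered point per bird, fat line left of lean line, and the mean with SD (n = 5 each). ADIPOQ minus ADIPOR2 averages 0.95 in the fat line and 1.92 in the lean line. ADIPOQ minus CDH13 does not overlap between the lines, which follows in part from the choice of CDH13.

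Across the 10 birds, ligand and receptors showed no correlation that passed a permutation test. ADIPOQ and ADIPOR2 had a Pearson r of -0.40 (permutation p = 0.25, adjusted over 3 pairs 0.376) and a Spearman rho of -0.60 (permutation p = 0.0733, adjusted 0.22). Without fat line 2 and 4, the birds farthest from the median of ADIPOQ, r was -0.70, and for deviations from the line means it was 0.00. ADIPOQ and ADIPOR1 had an r of -0.18 (permutation p = 0.613, adjusted 0.613) and a rho of -0.26 (permutation p = 0.468, adjusted 0.468), and r was 0.00 without the same birds. For the receptors, ADIPOR1 and ADIPOR2, r was -0.41 (permutation p = 0.244, adjusted 0.376) and rho -0.35 (permutation p = 0.33, adjusted 0.468). Without lean line 3 and 5, the highest and the lowest in ADIPOR1, that r was -0.12. It was -0.09 without lean line 3 alone and -0.47 without lean line 5 alone, so its size rests on lean line 3. For deviations from the line means it was -0.62 (permutation p = 0.0527, adjusted 0.158), and that of ADIPOQ and ADIPOR1 was -0.12. For deviations from scan day means the 3 r were -0.24, -0.17 and -0.51 in the same order. CDH13 falls into separate clusters by line, so no pooled relation was tested for it.

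The genes whose log2 signals were most like those of ADIPOQ over the 10 birds were, among 15792 probe sets with a symbol and a mean signal of at least 200, HBA1 (r = 0.938), HAUS8 (0.936), TRMT5 (0.921), FAM206A (0.917) and SLC25A37 (0.915). HBA1 encodes an alpha globin of haemoglobin, and SLC25A37 brings iron into the mitochondria of developing red cells, which keep their nucleus in birds. This HBA1 probe set had 17338.7, 6108.7, 5929.6, 4181.3 and 11194.7 in fat line 1 to 5, against 25396.3, 14155.2, 17329.2, 18959.7 and 16720.6 in lean line 1 to 5. Fat line 2, 3 and 4 were low in it as they were in ADIPOQ, and its r with ADIPOQ was 0.889 for deviations from the line means (n = 10). The other alpha globin, HBAD, had an r of 0.88 with ADIPOQ in each of 2 probe sets. Its log2 folds were -1.66 (SE 0.46) and -0.93 (SE 0.31), and that of HBA1 was -1.21 (SE 0.31, limma adjusted p = 0.321), none of which passed. HBAD was looked up after the values of HBA1 were seen. A second probe set of HBA1 had an r of 0.92 with ADIPOQ and a second one of SLC25A37 0.52. The first SLC25A37 probe set had only 31.9 and 27.1 in fat line 2 and 4, against 195.7 to 615.2 in the other birds. Its r with ADIPOQ was 0.93 within the fat line and 0.49 within the lean line (n = 5 each). The part of red cell RNA in the ADIPOQ difference was not tested.

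**Figure D4:**
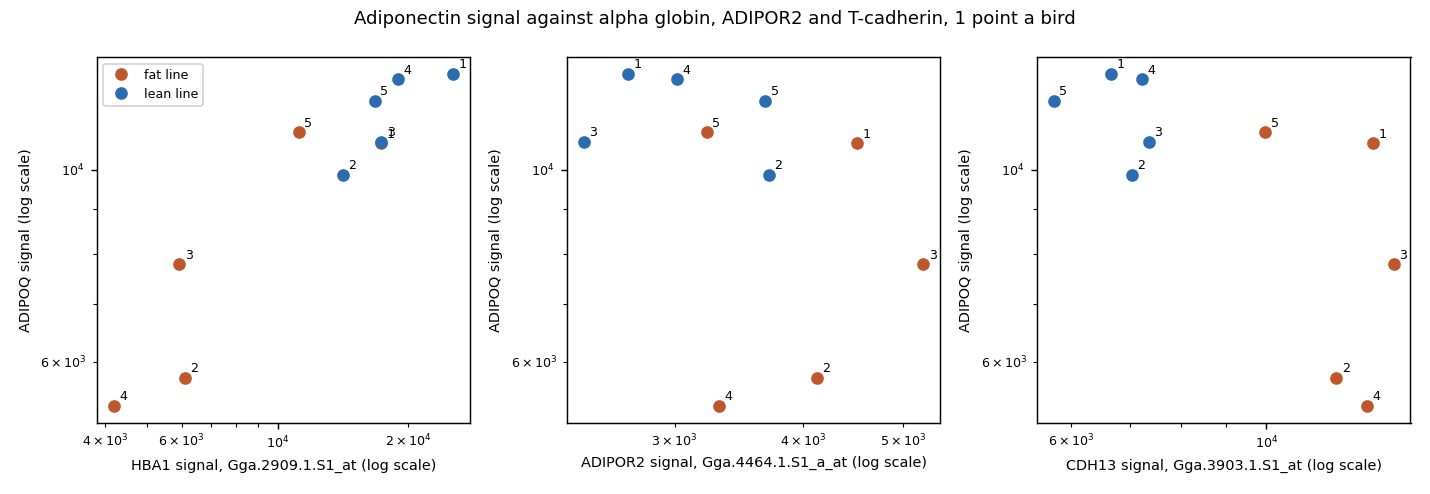
ADIPOQ signal (y axis, log scale) against the signals of the alpha globin HBA1, of ADIPOR2 and of CDH13 (x axes, log scale), with 1 numbered point per bird of the fat and lean lines (fat line 1 and lean line 3 nearly coincide in the HBA1 panel). ADIPOQ runs with HBA1 (r = 0.938 on log2 signals). CDH13, chosen for its separation of the lines, is higher in every fat line bird than in every lean line bird. Fat line 2, 3 and 4 are also low in ADIPOQ, while fat line 1 has a CDH13 signal of 13229.6 with ADIPOQ at 10739.2.

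Most like CDH13 over the 10 birds were LRP12 (r = 0.966), a member of the low density lipoprotein receptor family, GK2 (0.953), a glycerol kinase, SURF4 (0.942), SCRN3 (0.928) and UQCR11 (0.927), a subunit of the mitochondrial respiratory chain. LRP12 averaged 724 ± 141 in the fat line and 414 ± 36.2 in the lean line, and GK2 736 ± 158 and 414 ± 23.4 (SD, n = 5 each), so they share the line difference for which CDH13 was chosen. A second LRP12 probe set, with 747 ± 161 in the fat line and 495 ± 65.3 in the lean line, overlapped between the lines, and a second GK2 probe set did not. The study also reported LRP12 as higher in the fat line, by SAM and by real-time RT-PCR. For deviations from the line means, r was 0.857 for LRP12 and 0.713 for GK2, and the highest were HIF1A (0.963), the hypoxia-induced transcription factor, IFT81 (0.947), IL1RAP (0.913), INPP4B (0.907) and EFNA2 (0.903). HIF1A itself had 1873 in the fat line and 2069 in the lean line on average.

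ADIPOR2 was most like GPD2 (r = 0.951), the mitochondrial glycerol-3-phosphate dehydrogenase, NR1D2 (0.947), a nuclear receptor of the circadian clock, AKAP12 (0.946), NLGN3 (0.941) and PCYT2 (0.933), an enzyme of phosphatidylethanolamine synthesis. This was sought for the brighter ADIPOR2 probe set alone. The GPD2 probe set had 426.1 in fat line 4, where another GPD2 probe set had 940.9, its highest value. The study reported GPD2 as higher in the fat line, by SAM and by real-time RT-PCR. ADIPOR1 was most like SLC25A46 (0.949), BRCC3 (0.927), NXN (0.919), TBP (0.917) and TMEM41A (0.911). The TBP probe set was dim (68.7 to 429.2) with a log2 fold of 0.75, and the brightest one of TBP had -0.19. For these other probe sets of GPD2 and TBP no r with the receptors was computed. None of the genes named for 1 member was named for another. With 10 birds and 15792 probe sets searched these r values are given as a description.

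Among genes known in mammals for switching on, modifying or assembling adiponectin, none passed the test in either direction. PPARG, the master regulator of fat cells that activates the ADIPOQ promoter in mammals, averaged 5149 ± 1106 in the fat line and 3389 ± 785 in the lean line (SD, n = 5 each), 0.61 on the log2 scale (SE 0.19, adjusted p = 0.458 by limma). Its partner RXRA had a log2 fold of 0.96 (SE 0.34) in its brightest probe set, with 1.65 and -0.34 in the others, and CEBPA, another activator of fat cell genes, 0.51 (SE 0.23). GSTK1, known in mammals as a helper of adiponectin multimer assembly, averaged 4192 ± 850 in the fat line and 2848 ± 458 in the lean line (SD, n = 5 each), 0.55 on the log2 scale (SE 0.16, adjusted p = 0.451 by limma). The collagen lysyl hydroxylase PLOD1 had -0.33 (SE 0.14), and ERP44, which holds adiponectin back in the secretory pathway until it is assembled, had -0.01 (SE 0.13). Of 13 measured genes of this list 7 had higher and 6 lower signals in fat line birds, and their median log2 fold was 0.03, beside -0.05 over all probe sets. None passed limma's adjusted test, and 5 of 13 had an unadjusted p under 0.05, beside 7.38% of all probe sets.

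Below the receptors no gene passed either. Of 22 measured genes 10 had higher and 12 lower signals in fat line birds, and their median log2 fold was -0.05, that of all probe sets. CAMKK2, a kinase that activates AMPK, had the smallest p, with 344 ± 89.2 in the fat line and 521 ± 95.9 in the lean line (SD, n = 5 each), -0.61 on the log2 scale (SE 0.24, adjusted p = 0.588 by limma). The acid ceramidase ASAH1 had a log2 fold of 0.40 (SE 0.19) and the deacetylase SIRT1 -0.39 (SE 0.23). The catalytic AMPK subunits PRKAA1 and PRKAA2 had 0.24 (SE 0.24) and -0.13 (SE 0.34). The adaptor APPL1 had -0.38 (SE 0.26), PPARA 0.17 (SE 0.24), and ACACB, the acetyl-CoA carboxylase that AMPK switches off, 0.48 (SE 0.28). Dimmer probe sets of some of these genes had the opposite sign, with 0.57 for SIRT1, -0.37 for PPARA and -1.22 for PRKAA1. Another dim probe set of each kept the sign of the brightest, with -0.24, 0.08 and 1.19 in the same order. The dim PRKAA1 probe sets had line means of only 24.6 to 129.

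The families of the members were also followed. Of 6 other genes of the receptor family (progestin and adipoQ receptors, PAQR), 5 were higher and 1 lower (median log2 fold 0.09), and the smallest p was that of PAQR3 (log2 fold 0.27, SE 0.18, limma adjusted p = 0.789), whose dimmer probe sets had -0.07 and 0.06. Of 20 genes with a C1q-like head, the family of ADIPOQ, 6 had higher and 14 lower signals in fat line birds (median log2 fold -0.26). Among them the adiponectin paralogue C1QTNF1 averaged 1098 ± 397 in the fat line and 711 ± 241 in the lean line, and the short-chain collagen COL8A2 183 ± 141 and 368 ± 71.8 (SD, n = 5 each, log2 folds 0.59 and -1.24). Of 18 other cadherins 7 were higher and 11 lower, with a median of -0.28. CDH11, a cadherin of connective tissue cells, averaged 1258 ± 458 in the fat line and 2539 ± 917 in the lean line (SD, n = 5 each), with log2 differences of -0.99 (SE 0.26, adjusted p = 0.341 by limma) in its brighter probe set and -0.20 in the other. CDH8 and CDH18 had log2 folds of -0.80 (SE 0.27) and -1.27 (SE 0.48) in their brightest probe sets. These averaged 1827 in the fat and 2969 in the lean line for CDH8, but only 92.8 and 209 for CDH18. The others were dim, with line means of 14.8 to 176 for CDH8 and 12.5 to 103 for CDH18. They did not all go the same way, with -1.25, -1.11 and 0.26 for CDH8 and -1.99, -1.77, -0.80 and 1.07 for CDH18. The log2 fold of the endothelial CDH5 was 0.21 (SE 0.19). None of the genes of the 3 families passed limma's adjusted test, and 0 of 6, 1 of 20 and 3 of 18 had an unadjusted p under 0.05, beside 7.38% of all probe sets.

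Cell type markers were set beside these results. Of 10 fat cell markers 6 were higher in the fat line, with a median log2 fold of 0.19, and their summed signal was 175413 to 211842 in the fat line and 147373 to 185854 in the lean line. CD36, the fatty acid transporter of fat cells and vessels, did not overlap in its brighter probe set, with 32104 ± 3298 in the fat line and 24108 ± 2323 in the lean line (SD, n = 5 each, limma adjusted p = 0.518). CIDEC, a lipid droplet protein, LPL, the lipoprotein lipase, and THRSP, a regulator of lipid synthesis, had log2 folds of 0.40 (SE 0.16), 0.31 (SE 0.14) and 0.32 (SE 0.16). The lower markers were FABP4 at -0.03 (SE 0.14), AQP7 at -0.31 (SE 0.28), GPD1 at -0.19 (SE 0.49) and CAV1 at -0.06 (SE 0.33). DGAT2 had 0.89 (SE 0.53). The 4 probe sets of the lipid droplet protein PLIN1 had 0.07 in the brightest and 0.40, 0.28 and 0.48 in the others. Of 13 endothelial markers 9 were higher, with a median of 0.16 and sums of 46102 to 66714 in the fat line and 41574 to 68870 in the lean line. Of 9 smooth muscle and pericyte markers 1 was higher (the pericyte marker PDGFRB, 0.14, SE 0.12), with a median of -0.96. Their sums were 19831 to 27513 in the fat line and 27647 to 80061 in the lean line, without overlap but nearly touching. DES, ACTG2, TAGLN and MYLK had the smallest p of this list. Their log2 folds were -2.31 (SE 0.50), -2.27 (SE 0.50), -1.27 (SE 0.41) and -1.10 (SE 0.37) in the brightest probe sets, each with overlap of the lines. A dim second probe set of DES had 0.10. Skeletal muscle markers (0 of 11 higher, median -1.52), liver markers (0 of 9, -1.75), intestine markers (1 of 7, -0.43), mesothelial markers (0 of 3, -0.32) and macrophage markers (2 of 8, -0.15) had mostly lower signals in fat line birds. Their sums overlapped between the lines, and no gene of any list was at 0 in all birds or passed limma's adjusted test. An unadjusted limma p under 0.05 was found in 3 of 10 fat cell, 0 of 13 endothelial and 5 of 9 smooth muscle and pericyte markers. It was found in 1 of 11 skeletal muscle, 5 of 9 liver, 1 of 7 intestine, 0 of 3 mesothelial and 0 of 8 macrophage markers. The share of all probe sets was 7.38%. As a mean log2 deviation from the average over birds, the skeletal muscle list was high in lean line 3 and 5 (3.03 and 3.89) and fat line 2 (2.1). The other birds had -2.03 to -0.75. The liver list was high in lean line 1 and 5 (3.42 and 2.6), and the other birds had -1.62 to 0.34. The skeletal muscle and liver lists were thus high in a few birds and not across the lean line. The smooth muscle and pericyte list had -0.71 to 0.0 in the fat line. In the lean line it had -0.27 in lean line 2 and 0.2 to 1.51 in the others. The part of the cells of all these lists in the member differences was not tested.

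CDH13 lies in the annotation GRCg7b on a chromosome where its neighbours with a probe set are, on one side, MPHOSPH6, the arylamine N-acetyltransferases PNAT10, NAT and PNAT3, and HSD17B2. On the other side come MLYCD, HSBP1, KCNG4, WFDC1 and TLDC1. These 10 genes were looked up after the CDH13 values were known. The N-acetyltransferases were lower in the fat line, the opposite of CDH13. PNAT10 had 277.6, 355.5, 177.6, 133.8 and 89.1 in fat line 1 to 5, against 602.7, 526.1, 682.1, 578.2 and 536.3 in lean line 1 to 5. The lines did not overlap, and the log2 fold was -1.67 (SE 0.33, limma adjusted p = 0.236). NAT averaged 370 ± 90.8 in the fat line and 712 ± 195 in the lean line, and PNAT3 476 ± 106 and 734 ± 240 (SD, n = 5 each), with log2 folds of -0.93 (SE 0.24) and -0.60 (SE 0.23). These 3 genes belong to 1 family, and probes could be shared between them. MPHOSPH6, which stands between them and CDH13, had 0.09 (SE 0.45). MLYCD, the malonyl-CoA decarboxylase next to CDH13 on the other side, had 372 ± 84.6 in the fat line and 329 ± 75.2 in the lean line (SD, n = 5 each, log2 fold 0.18, SE 0.25), and HSBP1 had 0.07 (SE 0.14). No neighbour passed.

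**Figure D5:**
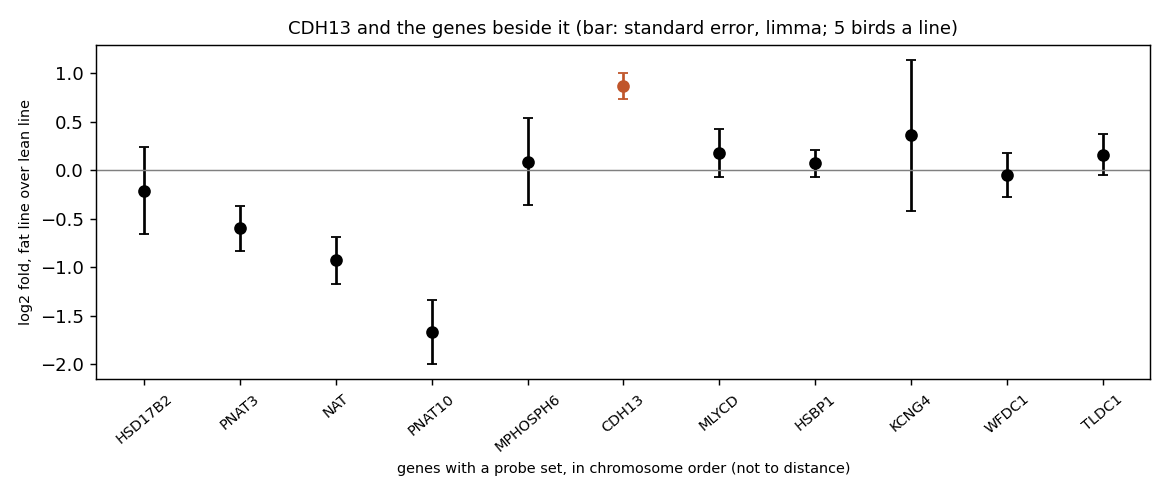
Log2 fold, fat line over lean line (y axis, limma standard errors, 5 birds a line), of CDH13 and the 5 genes with a probe set on each side of it, in chromosome order and not to distance. PNAT3, NAT and PNAT10 lie at -0.60, -0.93 and -1.67, CDH13 at 0.87, and MLYCD, HSBP1, WFDC1 and TLDC1 at -0.05 to 0.18. CDH13 was chosen for its line difference, which was not tested.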

How the data were processed

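Signal intensity values were deposited by the authors as MAS5 output, scaled per array to a trimmed mean of 500.1 (Microarray Suite in the methods, MAS5 in the submitters' processing notes). Of 38535 probe sets, 96 controls were left out. Symbols came from the array's annotation: 27168 probe sets carry 1 symbol, 177 several and 11094 none. The deposited scan logs gave scan day and wash run (a gap over 1 hour starts a run). No per-sample columns were left aside.

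Log2 signals were compared with limma 3.58.1 in R 4.3.3 (lmFit, eBayes with trend; Benjamini-Hochberg over 38439 probe sets; threshold 0.05). Differences between members were tested by exact permutation over 252 labellings, and correlations with 100000 permutations (Python 3.11.15, numpy 2.4.6, scipy 1.17.1, pandas 2.3.3; figures with matplotlib 3.10.9). The tests were tried on simulated data. The brightest probe set on average stood for each listed gene. Named genes were up to 4 of smallest p per list, some genes of known role, and the 5 most alike per member. The members and the 13 lists were chosen with earlier results of these data known. SAM with the study's delta of 0.8, and with 100 permutations chosen here, was an alternative. The study ran it on transcripts called present and without 1 fat line bird, which deviated from its line in clustering. The replicate labels alone do not say which bird that was. The study gives that bird an A-FABP signal of 57201, the highest FABP4 signal of the 10 birds here. Fat line 4 had the lowest mean correlation with the other birds (0.819). Whether it is the bird that the study left out was not checked. Here SAM took all 10 birds and all probe sets, so it does not repeat that test. Other alternatives were quantile and median scaling, other treatments of low signals, a fit without the intensity trend, blocks for replicate number, scan day and wash run, and each bird left out. The number of arrays limits the precision. Probe sequences were not used here, and the annotation GRCg7b served only for the order of genes beside CDH13.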

Additional observations from a re-analysis of the deposited data

Results flagged for a closer look

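One value stood apart from the others of its line, by a gap to its neighbour of 0.795 of the line's range on the log2 scale, above Dixon's limit of 0.71 for 5 birds. It was lean line 3 in the dimmest probe set of CDH13, with a signal of 209.8, against 263.0 to 278.8 in the other lean line birds. In the fat line that probe set had 218.7 to 455.7. Chance gives about 1 such flag in 20 groups, and 26 were examined.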

How the results depend on the processing

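The results are limited by 5 birds a line, by scan days that are not balanced over the lines and by signals without detection calls. ADIPOQ, ADIPOR1 and ADIPOR2 did not pass the adjusted test under any alternative of limma or with SAM on all birds and probe sets, which called 0, while 2835 had an unadjusted limma p under 0.05. Limma called 1 probe set without fat line 2, and 2 without fat line 4 or lean line 5. Of the probe sets with an unadjusted p under 0.05, 45.9% were higher in the fat line, 56.5% after quantile normalization and 62.0% after scaling to the same median, which moved the median log2 fold of all probe sets to 0.04 from -0.05. The ADIPOQ fold was -0.71 (without fat line 5) to -0.44 (without fat line 4) over the birds left out in turn. Fat line 4 had the lowest ADIPOQ signal and the lowest mean correlation with the other birds. The fold of ADIPOR2 was 0.29 to 0.47 over the birds left out (0.39 to 0.83 in the dimmer probe set). That of CDH13, which was chosen for its separation of the lines, was 0.81 to 0.94 (0.60 to 0.79 in the second). The small ADIPOR1 fold (-0.05 to 0.22 over the birds left out) turned to -0.01 with scan day as a block, -0.05 without lean line 5 and -0.14 on day 1. The third CDH13 probe set turned to -0.05 without fat line 2 (-0.05 to 0.22 over all) and -0.28 on day 1, and the dimmer ADIPOR2 to -0.29 on day 1. On day 1 the folds were -0.20 for ADIPOQ, 0.10 for the brighter ADIPOR2 probe set, and 0.47 and 0.22 for the brighter pair of CDH13. The day 1 values, with 1 bird a line, were chosen after seeing the data. ADIPOQ minus ADIPOR2 was -1.17 to -0.85, passing (adjusted exact permutation p = 0.0238) without fat line 5 alone. ADIPOQ minus ADIPOR1 was -0.82 (unadjusted exact permutation p = 0.0397, without lean line 3) to -0.47 and ADIPOR1 minus ADIPOR2 -0.51 to -0.09, neither passing after adjustment. Without fat line 4, added after seeing the data, the median log2 fold of the intestine markers was -0.91, of the mesothelial markers -0.57, of the macrophage markers -0.06, of the PAQR family 0.16, of the genes below the receptors -0.03 and of those that make adiponectin 0.01. The other medians were then 0.18 (fat cell), 0.15 (endothelial), -0.91 (smooth muscle and pericyte), -1.56 (skeletal muscle), -1.96 (liver), -0.33 (C1q-like genes) and -0.41 (cadherins). Of 10 fat cell markers 8 were then higher in the fat line, against 6 with all birds. The r of ADIPOQ and ADIPOR2 was -0.59 to -0.31, -0.69 after quantile normalization (unadjusted permutation p = 0.0304), and 0.00 for deviations from the line means, where the adjusted permutation p was 0.993. The causes were not tested. Same-numbered birds of the lines deviated with r of -0.14 to 0.06 and share only a number. With the replicate block limma called 0 probe sets, and ADIPOQ minus ADIPOR2 was -0.97 (exact permutation p = 0.125 over 32 labellings, where 0.0625 is the smallest possible).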
